A study of Mus musculus with 30 samples.

Results

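The genes described here are 10 transcripts that mark classical monocytes and myeloid cells entering an inflamed tissue: Ly6c2, Ccr2, Gpr141, S100a4, Plac8, Napsa, Chil3, F13a1, Hp and Fn1. They were chosen by symbol, with earlier results of these data known, and make up 10 of the 46078 genes in the count table. Counts of members set against the share of all genes are therefore descriptions. All 10 passed the filter on low counts that left 13880 genes for testing, and each is followed through 30 RNA-seq libraries of sorted mouse microglia in 8 groups. The study set microglia with and without Atg7, a gene needed for autophagosome formation, against each other without disease and during experimental autoimmune encephalomyelitis (EAE), an induced inflammatory disease of the central nervous system, and added old mice.

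All mice were C57BL/6. WT groups were Atg7wt/wt with Cx3cr1CreERT2, KO groups were Atg7fl/fl with Cx3cr1CreERT, and both received 4 mg tamoxifen 3 times, with 48 h between doses. The labels give the same treatment text for the old groups, although it names only these 2 genotypes. EAE followed at least 18 days later and was induced with recombinant mouse MOG (residues 1 to 125) and pertussis toxin. The groups were naive WT, naive KO and naive old (n = 4 each), day 21 WT (n = 3), day 21 KO (n = 4), day 35 WT and day 35 KO (n = 4 each) and day 35 old (n = 3). Age is given only as young or old, and the old groups carry the wild-type Atg7 status with no statement on Cre. The sort took live cells that were CD11b+ and CD45int without Ly6G, and/or eYFP+, pooled in equal parts from female and male mice. Cx3cr1, whose promoter drives the Cre, is active in microglia, border macrophages and part of the monocytes. The labels do not say whether libraries of a group came from separate mice, although deposited EAE scores differed between libraries within each EAE group. P-values measure the spread between these libraries, which may in part be technical.

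Classical monocytes are made in bone marrow, carry Ly6C on the surface and leave the marrow by the chemokine receptor CCR2. In EAE they follow CCR2 ligands such as CCL2 into brain and spinal cord, where they lose Ly6C and become macrophages. Microglia arise in the embryo, live in the tissue and in the healthy brain express little of these genes. Several of the 10, Hp and Chil3 among them, are also made by neutrophils and their precursors, and Fn1 is made by many activated macrophages.

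Libraries held 4712803 to 11034565 counts (median 6769302), so 3 counts correspond to 0.281 to 0.704 CPM (counts per 1000000 counts of the library, scaled with TMM factors). The microglial gene Csf1r was high in every library (2890 to 8560 CPM). Atg7, counted over the whole gene, ran from 11.4 to 36.9 CPM in the 12 libraries labelled KO and from 19.8 to 40.1 CPM in the 11 labelled WT. The deleted part of Atg7 is not named in the labels, so this total does not check the genotype, and group names here are those of the titles. Day 35 WT 3 has WT in its title and KO as its knockout status. It was kept as WT, and where moving it changed a count of members called the new count is given. EAE scores in the deposited sample table were 2 to 3 at day 21 in WT, 2.75 to 3 at day 21 in KO, 1 to 1.5 at day 35 in WT, 2.5 to 3 at day 35 in KO and 2.75 to 3 at day 35 in old mice.

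Ly6c2, Chil3 and F13a1 are shown by sequence because they moved together across the libraries and their promoters hold the 7 bases of the ETS core AGGAAGT, which PU.1, a transcription factor that myeloid cells need, can bind. Each sequence is the 250 bases before the start of a RefSeq transcript (GRCm38.p6), read 5′ to 3′ on the minus strand on which all of these genes lie, with the core, or its reverse complement, in capitals.

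Ly6c2, chr15:75111972-75112221, core starting 107 bases before the start: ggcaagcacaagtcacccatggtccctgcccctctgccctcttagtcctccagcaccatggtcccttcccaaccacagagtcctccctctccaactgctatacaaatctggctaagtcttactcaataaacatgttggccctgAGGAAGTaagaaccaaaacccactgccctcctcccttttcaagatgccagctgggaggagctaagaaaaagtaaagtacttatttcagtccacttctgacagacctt

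Chil3, chr3:106167565-106167814, core starting 60 bases before the start: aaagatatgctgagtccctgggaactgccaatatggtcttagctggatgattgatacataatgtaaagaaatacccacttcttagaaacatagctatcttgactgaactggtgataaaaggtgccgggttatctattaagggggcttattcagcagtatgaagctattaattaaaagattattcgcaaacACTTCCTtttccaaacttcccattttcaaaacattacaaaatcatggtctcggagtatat

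F13a1, chr13:37049214-37049463, core starting 36 bases before the start: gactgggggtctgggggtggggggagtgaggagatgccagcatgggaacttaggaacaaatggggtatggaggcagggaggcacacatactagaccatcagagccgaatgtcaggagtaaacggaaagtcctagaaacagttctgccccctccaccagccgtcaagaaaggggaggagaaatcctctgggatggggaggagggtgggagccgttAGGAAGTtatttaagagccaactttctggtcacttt

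RefSeq windows were found for 7 of the 10 genes, some with more than 1, which gave 10 windows. Of these windows 4, in 3 of the genes, held the ETS core on either strand, against 7.69% of 32851 windows of the same length. The second F13a1 window, chr13:37050245-37050494, did not hold it, and the second Ly6c2 window, which overlaps the printed one, held it at 2 places. The C/EBP motif TTGCNNAA stood in a Plac8 window (9.56% of all windows), the STAT motif TTCNNNGAA in that of Chil3 (7.02%), and TATAAA in those of S100a4 and Gpr141 (12.4%). The AP-1 motif TGANTCA (6.75%) and the interferon-stimulated response element (2.98%) were in none of the windows of the 7 genes. Matches were sought on both strands and those in the 3 printed windows do not overlap one another.

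At day 21 of EAE all 10 genes were higher in KO than in WT, and every KO library lay above every WT library for each of them. With edgeR's quasi-likelihood test and Benjamini-Hochberg adjustment over 13880 genes, 7 of the 10 were called higher, where 9.18% of all genes were called higher. Groups did not overlap, with KO above, for 10 of 10 members and 20.5% of all genes. The median log2 fold change of the 10 was 4.52 and that of all genes 0.00. In pooled cells a change in the number of cells of a type and a change in RNA per cell cannot be told apart.

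**Figure D1:**
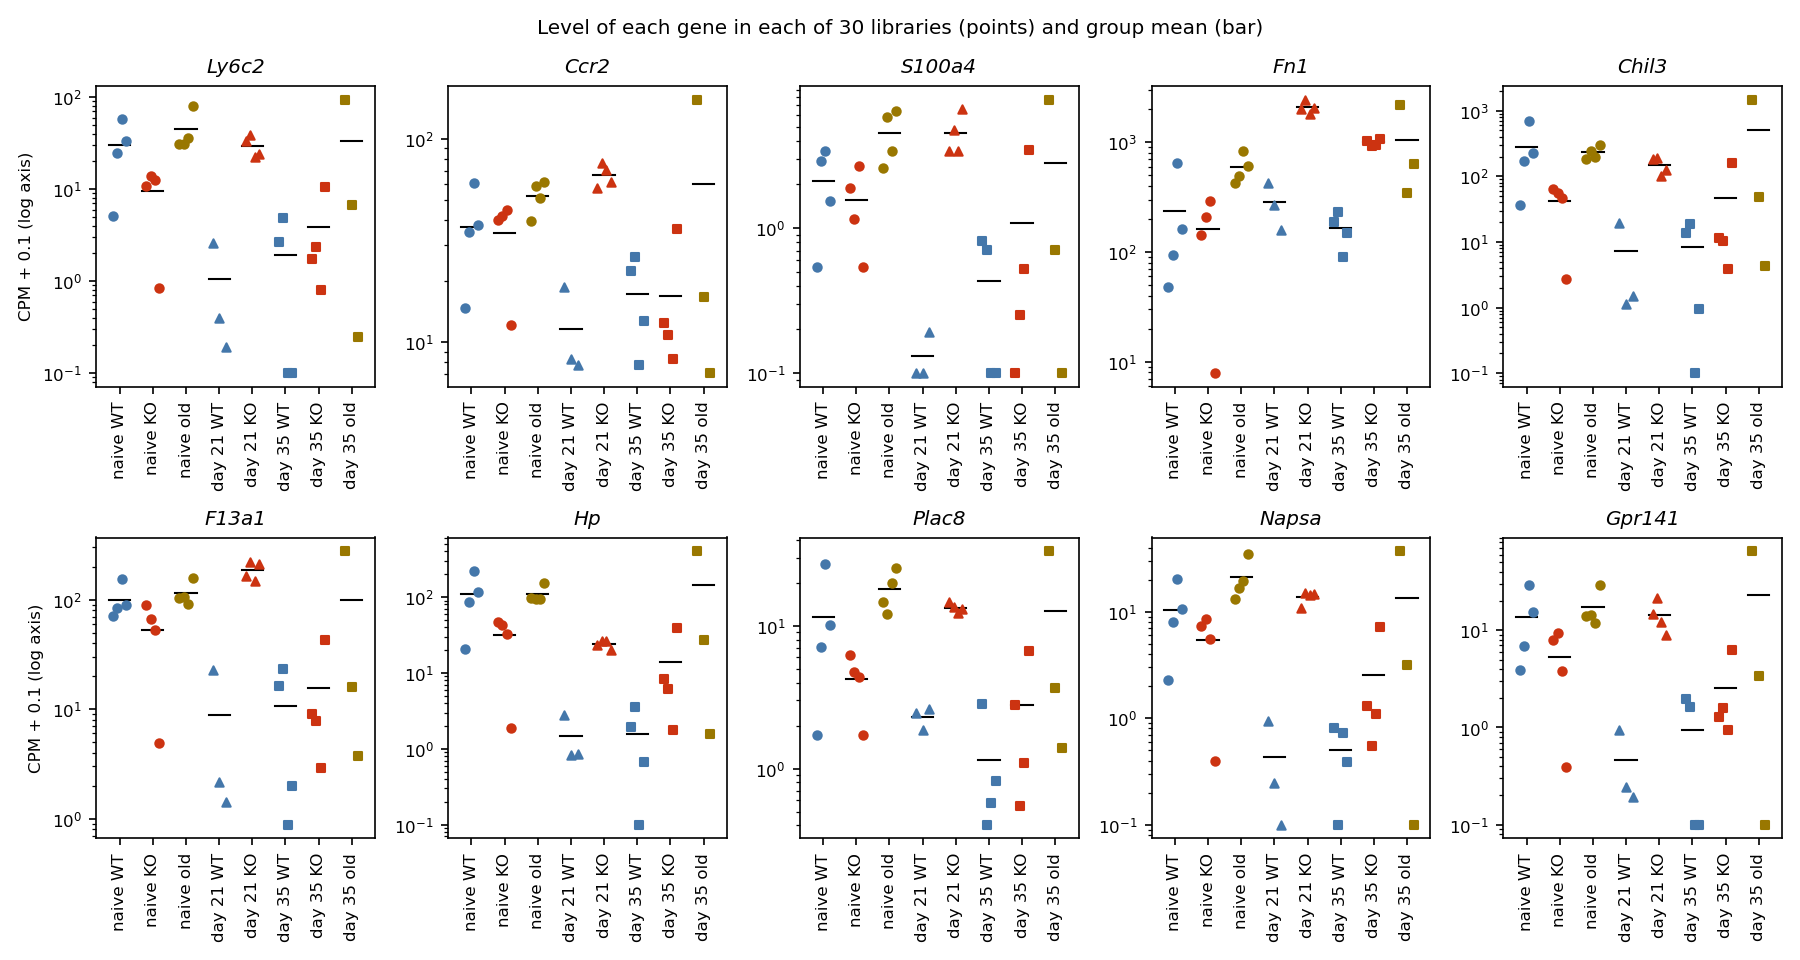
Level of each of the 10 genes (CPM + 0.1, log axis) in each of the 30 libraries, by group, with points for libraries and a bar for the group mean. In day 21 KO all 4 libraries stand above the 3 day 21 WT libraries in every panel, from 22.4 to 39.0 CPM against 0.0935 to 2.51 CPM for Ly6c2.

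Among the surface proteins, Ly6c2 (chr15:75108158-75111970, minus strand) encodes the Ly6C antigen by which classical monocytes are recognised. It measured 33.45, 38.96, 22.39 and 23.85 CPM in the 4 day 21 KO libraries and 2.51, 0.293 and 0.0935 CPM in the 3 day 21 WT libraries. All KO libraries were high, and among the WT libraries only replicate 1 was above 1 CPM. The log2 fold change was 5.16 (SE 1.53, adjusted p = 0.0212 by edgeR). Reads of Ly6c2 and its near-identical neighbour Ly6c1 may have been split by the counting, so its level is uncertain.

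Ccr2 (chr9:124101950-124113557, plus strand), the receptor that takes monocytes out of the marrow and into inflamed tissue, stood at 57.16, 75.87, 70.32 and 61.34 CPM in day 21 KO and at 18.59, 8.20 and 7.67 CPM in day 21 WT. The groups were apart, and no WT library was near 0. Its log2 fold change was 2.56 (SE 0.793, adjusted p = 0.0271 by edgeR). Gpr141 (chr13:19749682-19824257, minus strand), an orphan G-protein-coupled receptor, ranged from 8.89 to 21.3 CPM in KO and from 0.0935 to 0.837 CPM in WT. The difference was 5.45 on the log2 scale (SE 1.62, adjusted p = 0.0211 by edgeR).

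Of the intracellular proteins, S100a4 (chr3:90603771-90606045, plus strand), a calcium-binding protein of motile cells, measured 3.30, 4.64, 3.31 and 6.52 CPM in the 4 KO libraries and gave 1 count in the 3 WT libraries together. The KO to WT ratio of its counts, scaled by library size, was 104.6 with an exact 95% interval from 18.39 to 4167 that covers counting error only. S100a4 was called (adjusted p = 0.0073 by edgeR), and 302 of its exonic bases are shared with Gm42674 on the same strand. Napsa (chr7:44572380-44586862, plus strand), a lysosomal aspartic protease, ran from 10.7 to 14.8 CPM in KO and from 0 to 0.837 CPM in WT. Its log2 fold change was 5.58 (SE 1.51, adjusted p = 0.0126 by edgeR). Plac8 (chr5:100553725-100572245, minus strand), a small cysteine-rich protein, held a tight 12.2 to 14.4 CPM in KO against 1.76 to 2.52 CPM in WT, yet was not called (log2 fold change 2.56, SE 0.939, adjusted p = 0.0587 by edgeR).

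Secreted proteins made up the rest. F13a1 (chr13:36867178-37050244, minus strand), the A subunit of coagulation factor XIII and a transglutaminase of monocytes, ran from 148.3 to 218.2 CPM in day 21 KO. In day 21 WT it measured 22.61, 2.05 and 1.31 CPM. The groups were far apart, and WT replicate 1 was the highest of its group, as for Ly6c2 and Ccr2. F13a1 was called higher (log2 fold change 4.54, SE 1.30, adjusted p = 0.0177 by edgeR).

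Chil3 (chr3:106147554-106167564, minus strand), a chitinase-like protein also called Ym1, measured 185.1, 189.8, 101.6 and 125.9 CPM in KO and 19.43, 1.02 and 1.40 CPM in WT. Hp (chr8:109575128-109579172, minus strand), haptoglobin, which binds free haemoglobin, ran from 20.2 to 26.5 CPM in KO and from 0.732 to 2.68 CPM in WT. Neither passed the test although their groups were apart. Chil3 had a log2 fold change of 4.50 (SE 1.71, adjusted p = 0.0679 by edgeR) and Hp one of 4.23 (SE 1.59, adjusted p = 0.0646 by edgeR). Chil3 has a close paralog, Chil4, so its count is uncertain in the same way as that of Ly6c2.

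Fn1 (chr1:71585520-71653200, minus strand), fibronectin of the extracellular matrix, was the highest of the 10 per length in day 21 KO. It measured 2027, 2443, 1799 and 2073 CPM there and 421.2, 268.8 and 159.8 CPM in day 21 WT. Its log2 fold change was 2.88 (SE 0.860, adjusted p = 0.0219 by edgeR). Fn1 was thus well above 0 in every WT library too.

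The count of 7 rested on the WT libraries. Without day 21 WT 2 or without day 21 WT 3 only S100a4 was called, while the 7 log2 fold changes lay between 2.31 and 7.92 over all 7 omissions. DESeq2 called all 10, as did edgeR fitted to these 2 groups alone. Both also called more of all genes either way. DESeq2 called 3002 of 13876 and the fit of 2 groups 4559 of 13880, against 2642 of 13880 in the main fit.

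**Figure D2:**
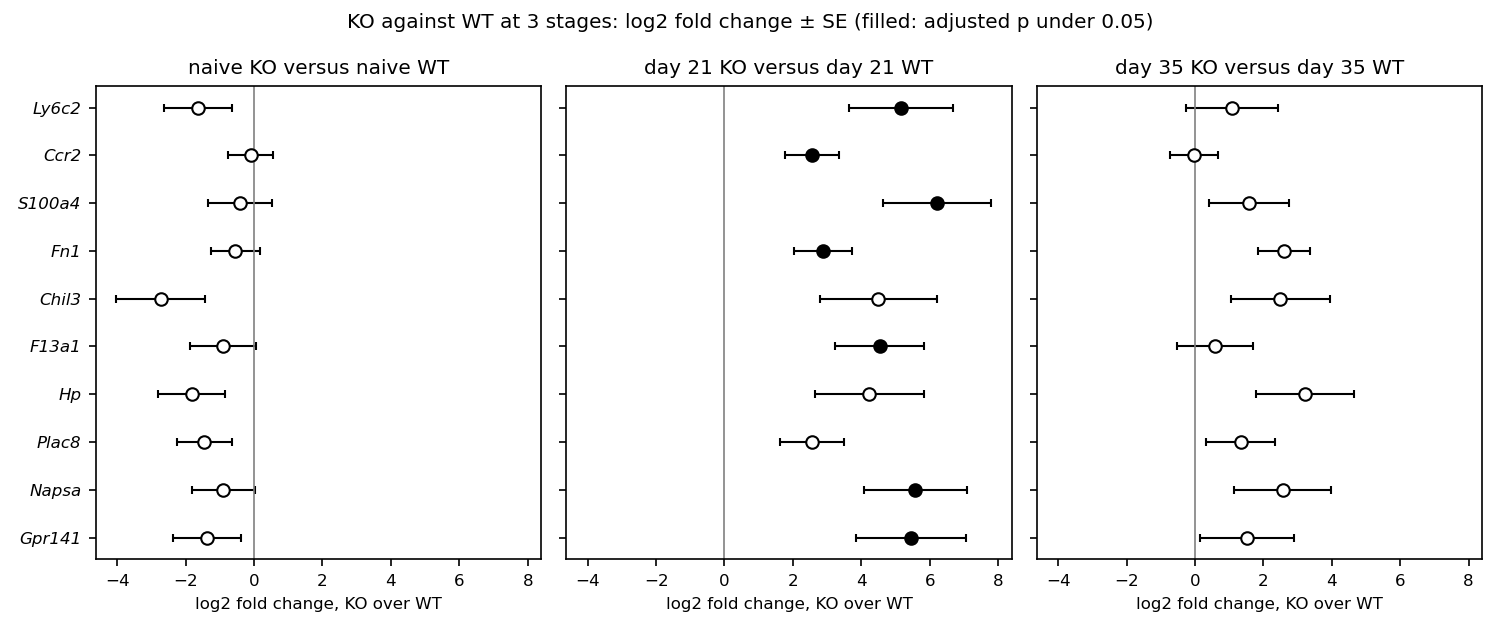
Log2 fold change of KO over WT (horizontal axis) for the 10 genes without disease, at day 21 and at day 35, with bars of 1 standard error and filled circles for an adjusted p under 0.05. All 10 lie above 0 at day 21, 7 of them filled, and none is filled in the naive or day 35 panels.

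Other genes of the same programme were read from lists chosen with earlier results of these data known. Of 20 other classical monocyte genes, 15 were called higher in day 21 KO than in day 21 WT and 0 lower, with a median log2 fold change of 3.09. The 4 with the lowest adjusted p were Tgfbi, a secreted matrix-binding protein, Ms4a6c, a membrane protein, Crip1, a LIM-domain protein, and Lgals3, galectin 3. Tgfbi stood at 994 ± 133 CPM (SD, n = 4) in KO and 96.7 ± 54.8 CPM (n = 3) in WT (adjusted p = 0.000419 by edgeR). Lgals3 stood at 98.3 ± 15.3 CPM against 13.01 ± 5.15 CPM (adjusted p = 0.00686 by edgeR).

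The ligands of CCR2 were also higher in KO, 3 of 4. Ccl2 measured 114.4 ± 7.0 CPM (SD) in day 21 KO and 58.8 ± 9.18 CPM in day 21 WT, a log2 fold change of 0.96 (SE 0.254, adjusted p = 0.00948 by edgeR). Ccl7 differed by 1.52 (SE 0.409) and Ccl8 by 2.97 (SE 0.922) on the log2 scale. Ccl8 was low, at 4.09 ± 1.4 CPM in KO and 0.554 ± 0.403 CPM in WT. Ccl2 had already been higher at day 21 in WT than in naive WT, 58.8 ± 9.18 against 14.98 ± 6.96 CPM (adjusted p = 1.03e-05 by edgeR), where Ly6c2 was lower.

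Of 9 tested genes of macrophages that develop from monocytes, 6 were higher in day 21 KO. Nos2, inducible nitric oxide synthase, measured 42.6 ± 10.1 CPM against 2.40 ± 2.13 CPM in WT, and Cd38, an NAD-degrading surface enzyme, 27.95 ± 4.95 against 1.25 ± 1.38 CPM. Mmp14, a membrane metalloprotease, was higher by 1.06 on the log2 scale (SE 0.188). Of 7 non-classical monocyte genes 2 were higher, the integrin Itgal and the sialoglycoprotein Spn. Of 8 tested dendritic cell genes 1 was higher, Clec10a.

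Markers of other cells moved at the same comparison, where 1274 of all 13880 genes were called higher and 1368 lower. Of 12 homeostatic microglia genes 11 were lower in day 21 KO, their summed level 10080 to 10740 CPM in KO against 18300 to 21570 CPM in WT. Of 6 tested T and NK cell genes all 6 were higher, the sum of all 10 listed running from 14.6 to 26.2 CPM in KO against 1.02 to 4.52 CPM in WT, with Trbc2 at 0 in the WT group. Of 10 border macrophage genes 4 were higher, the sum running from 228 to 273 CPM against 32.9 to 82.6 CPM, with Cd209f at 0 in both groups. Within that sum Siglec1 measured 143.1 ± 13.6 CPM (SD) in KO and 28.1 ± 10.0 CPM in WT. Mrc1 measured 44.5 ± 3.26 CPM in KO and 16.9 ± 10.9 CPM in WT. All 5 erythroid genes were lower, 0.785 to 4.0 CPM in sum against 25.96 to 81.5 CPM. Of the tested B and plasma cell genes 2 of 3 were lower, of the endothelial ones 1 of 4 and of the neuronal ones 1 of 5, and 0 of the fibroblast, astrocyte and oligodendrocyte genes were called. The part of these cells in the result was not tested.

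Neutrophil genes were not called higher. Of 14 listed, 0 were called higher and 1 lower in day 21 KO. The 1 lower was Csf3r, which alone gave 431 to 511 CPM in KO and 673 to 718 CPM in WT. Without Csf3r, left out after its values were seen, 12 of 13 log2 fold changes were above 0 with a median of 1.90 and a lowest adjusted p of 0.0944 by edgeR. The sum of the 13 was 75.4 to 110 CPM in KO and 11.7 to 33.0 CPM in WT. In naive WT the same sum was 1537 to 16340 CPM, with S100a9, a granule protein subunit, at 372 to 4919 CPM and Ngp, neutrophilic granule protein, at 321 to 3303 CPM.

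**Figure D3:**
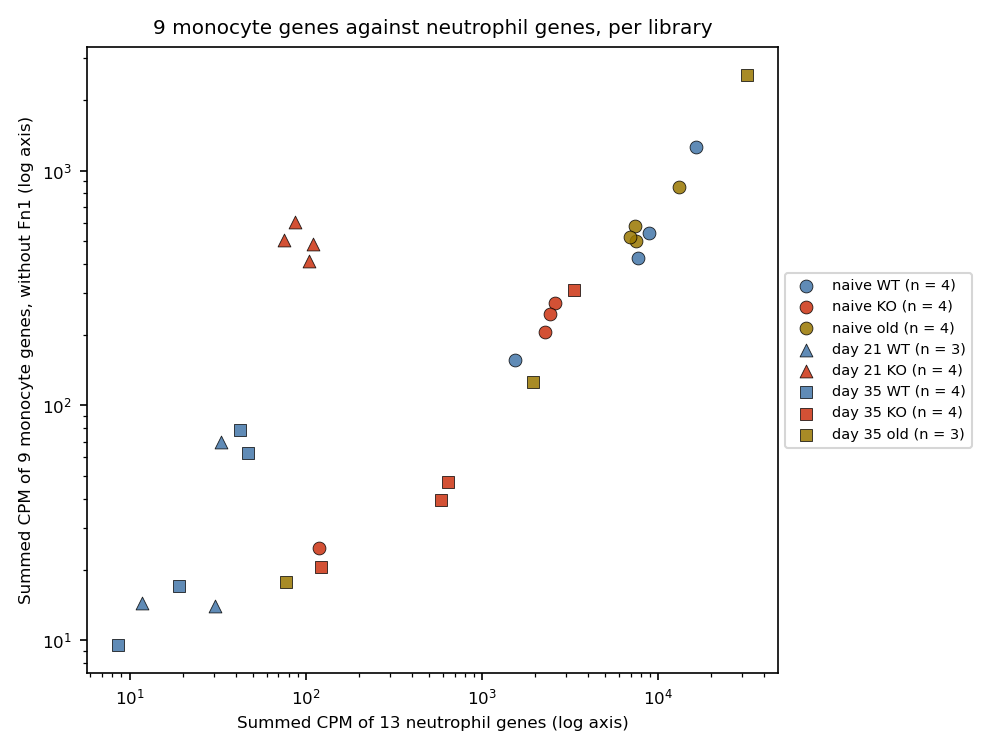
Summed CPM of 9 of the genes (all but Fn1, vertical log axis) against the summed CPM of 13 neutrophil genes (horizontal log axis), 1 point per library. The 4 day 21 KO libraries sit at 411 to 603 CPM on the vertical axis with 75.4 to 110 CPM on the horizontal axis, where the naive old libraries, at 501 to 847 CPM, have 6886 to 13120 CPM of neutrophil genes.

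Side by side, the 2 sums set day 21 KO apart from naive WT and naive old. The 9 genes without Fn1 summed to 411 to 603 CPM in day 21 KO, to 501 to 847 CPM in naive old and to at most 1258 CPM in naive WT. Neutrophil genes were at 1537 CPM or more in every naive WT and naive old library and at most 110 CPM in day 21 KO. Day 35 old 1, the highest library for the 9 genes (2540 CPM), was also the highest for the 13 neutrophil genes (31790 CPM).

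The proportions of the members to one another were read as count ratios within a library. For each Ly6c2 count, Hp gave 3.47 to 4.09 counts in naive WT, 1.90 to 3.16 in naive old and 2.55 to 4.45 in the 3 naive KO libraries with at least 10 Ly6c2 counts. In day 21 KO the same ratio was 0.681 to 1.18, below each of those libraries, and so were the 3 EAE libraries of WT with enough counts (1.07 at day 21, 0.722 and 0.742 at day 35). Day 35 old 1 and 2 were at 4.31 and 4.0, and day 35 KO 1, 2 and 4 at 5.0, 2.67 and 3.75. Chil3 per Ly6c2 count was 4.54 to 5.54 in day 21 KO, below every naive WT library (6.78 or more) but within the range of naive old (3.76 to 7.91) and of naive KO (3.68 to 5.97).

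**Figure D4:**
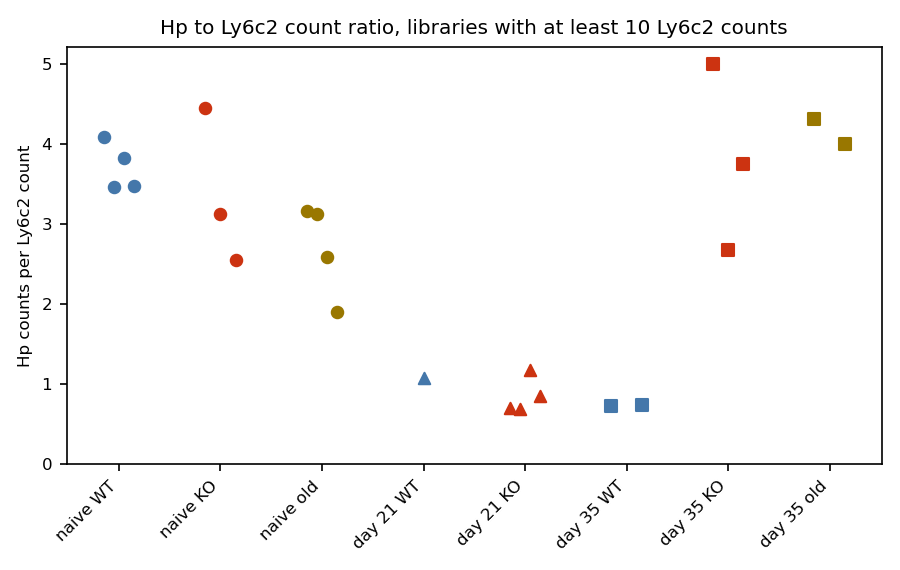
Hp counts per Ly6c2 count in each library with at least 10 Ly6c2 counts, by group. Day 21 KO libraries lie between 0.681 and 1.18 and naive WT libraries between 3.47 and 4.09.

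Per kilobase of exon, the order of the genes shifted too. In naive WT the highest was Chil3 (mean 171.9 CPM per kb, n = 4, with 1 SD larger than the mean), then Hp (68.8 ± 51.5) and Fn1 (20.3 ± 23.6), neighbours that overlap within their spread. In day 21 KO it was Fn1 (178 ± 22.8 CPM per kb), then Chil3 (92.3 ± 26.8), F13a1 (27.5 ± 5.15) and Hp (15.05 ± 1.88), each apart from the next, Hp from Ly6c2 included, by more than either SD. Ly6c2 (10.8 ± 2.88) and Ccr2 (9.79 ± 1.25) lay within their spread, as did Plac8 (8.30 ± 0.599) and S100a4 (7.60 ± 2.61 CPM per kb), while Ccr2 and Plac8 differed by more than either SD. Napsa and Gpr141 came last.

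Without disease, no member was called between KO and WT. Ly6c2 measured 10.64, 13.82, 12.61 and 0.733 CPM in naive KO and 4.999, 24.63, 57.13 and 33.64 CPM in naive WT. The range in WT spanned that of KO for most of its length, and naive KO 4 was the lowest library, as it was for the 13 neutrophil genes among the naive libraries (119 CPM in sum). By edgeR 0 of 10 members were called in either direction, where 0.288% of all genes were called, and 1 (Chil3) had an unadjusted p under 0.05, as did 1293 of the 13880 genes tested. DESeq2 called 0 as well. All 10 log2 fold changes were negative, with a median of -1.14 against -0.02 for all genes.

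The difference between the genotype effects at day 21 and without disease was tested as an interaction. It was called higher for 8 of the 10, where 4.72% of all genes were called higher. The exceptions were Fn1 (3.43 on the log2 scale, SE 1.10, adjusted p = 0.0509 by edgeR) and Ccr2 (2.65, SE 1.02, adjusted p = 0.0975). Chil3 had an interaction of 7.23 (SE 2.15, adjusted p = 0.0383 by edgeR). Leaving out naive WT 3, day 21 WT 2 or day 21 WT 3 each brought the count to 0, and the other omissions gave counts of 3 to 9. The count was 1 with no filter on low counts, 5 with the index row as a block and 10 by DESeq2. Of all genes, those fits called 845 of 30273, 926 of 13880 and 1834 of 13876 either way, against 1343 of 13880 in the main fit.

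In WT mice most of the genes were lower during disease than before it. From naive WT to day 21 WT 7 of 10 were called lower, where 12% of all genes were, and groups were apart with day 21 below for 7 of 10 against 19.6%. From naive WT to day 35 WT it was also 7 called lower, against 10.7% of all genes, and 6 without overlap, against 11.9%. The first 7 were Ly6c2, S100a4, Chil3, F13a1, Hp, Napsa and Gpr141, and at day 35 Plac8 took the place of S100a4. Both comparisons share the naive WT libraries.

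Hp had the largest fitted fall of the 10 in both. It measured 20.44, 85.38, 219.0 and 117.0 CPM in naive WT, 2.68, 0.732 and 0.748 CPM at day 21 and 1.86, 3.50, 0 and 0.577 CPM at day 35. No EAE library of WT mice reached the lowest naive one. The log2 fold changes were -6.43 (SE 1.57, adjusted p = 0.00571 by edgeR) and -6.20 (SE 1.37, adjusted p = 0.00404), and Hp was called under every omission of 1 library in both comparisons. Ccr2 was not called in either, at 14.70, 34.71, 60.57 and 37.78 CPM in naive WT with log2 fold changes of -1.72 (adjusted p = 0.121 by edgeR) and -1.10 (adjusted p = 0.271).

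Neutrophil genes fell in the same comparisons, 12 of 14 each time with Csf3r higher, their sum without Csf3r going from 1537 to 16340 CPM in naive WT to 11.7 to 33.0 CPM at day 21 and 8.61 to 46.8 CPM at day 35. Stfa2l1 was at 0 in both EAE groups of WT. Border macrophage genes fell as well, 7 of 10 each time. Of 12 homeostatic microglia genes 5 were lower at day 21 and 2 at day 35. Of 6 astrocyte genes 2 and 1 were higher, and of 5 tested oligodendrocyte genes 2 and 0. Of 4 tested endothelial genes 1 was higher and 1 lower each time, as of 6 tested T and NK cell genes at day 35. Of all 13880 genes 1320 and 1166 were called higher. The part of these cells in the fall of the monocyte genes was not tested. The day 21 count of members called was 1 without day 21 WT 2 or without day 21 WT 3 and 4 without naive WT 3. The day 35 count was between 2, without naive WT 3, and 7, and was 3 or 4 without any 1 of the 4 day 35 WT libraries and 3 with day 35 WT 3 moved to KO.

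In KO mice the course was another one. From naive KO to day 21 KO, 1 of 10 was called higher, Fn1, where 22.5% of all genes were called higher. For 8 of the 10 every day 21 library lay above every naive one, against 22.8% of all genes, and Hp and Gpr141 were the exceptions. Fn1 measured 141.8, 208.5, 289.6 and 7.77 CPM in naive KO, against 1799 to 2443 CPM at day 21, a log2 fold change of 3.68 (SE 0.796, adjusted p = 0.000673 by edgeR). Ly6c2 had a log2 fold change of 1.62 (SE 0.997, adjusted p = 0.192 by edgeR) and Hp one of -0.37 (SE 0.996, adjusted p = 0.783). Of 20 other classical monocyte genes 9 were called higher and 0 lower, with a median log2 fold change of 1.6. Among them Tgfbi stood at 994 ± 133 CPM (SD) at day 21 and 163.3 ± 65.7 CPM in naive KO. Called lower were 3149 of the 13880 genes tested. Neutrophil genes fell in this comparison, 11 of 14, as did 11 of 12 homeostatic microglia genes, while 8 of 9 tested genes of macrophages from monocytes rose, among them Arg1, an arginine-degrading enzyme, from 1.61 ± 1.71 to 186.7 ± 33.7 CPM.

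By day 35 some of the members were lower in KO than at day 21. Against day 21 KO, 3 of 10 were called lower, where 11.7% of all genes were called lower. They were F13a1 (log2 fold change -3.55, SE 1.07, adjusted p = 0.0186 by edgeR), Ccr2 (-1.96, SE 0.685, adjusted p = 0.0397) and Plac8 (-2.27, SE 0.827, adjusted p = 0.048). For 7 of 10 genes every day 35 KO library was below every day 21 KO library, against 16.3% of all genes. Markers of other cells moved with this comparison, where 1843 of all 13880 genes were called higher. All 6 tested T and NK cell genes were lower (sum 1.13 to 3.71 CPM at day 35, 14.6 to 26.2 CPM at day 21), as were 5 of 10 border macrophage genes (59.0 to 80.2 against 228 to 273 CPM, with Cd209f at 0 in both groups). Homeostatic microglia genes were higher, 9 of 12 (12580 to 18910 against 10080 to 10740 CPM), and so were 7 of 14 neutrophil genes, all 5 erythroid (55.1 to 212.3 against 0.785 to 4.0 CPM), all 5 tested neuron, all 3 tested B and plasma cell, 3 of 6 astrocyte and 2 of 5 tested oligodendrocyte genes. Of 4 tested endothelial genes 1 was higher and 1 lower, and 0 fibroblast genes were called. Their part in the result was not tested.

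A single library stood above the other 3. F13a1 measured 8.91, 7.64 and 2.82 CPM in day 35 KO 1 to 3 and 42.58 CPM in day 35 KO 4, and Chil3 11.29, 10.33 and 3.802 CPM against 159.0 CPM. Without day 35 KO 4, 7 of the 10 were called lower. Without day 35 KO 1, 2 or 3 the count was 0, and without any 1 of the day 21 KO libraries it was 1. It was 1 with no filter on low counts, where 2948 of 30273 genes were called either way. It was 7 with day 35 WT 3 moved to KO (4183 of 13880 genes) or with the 2 groups fitted alone (4300 of 13880). The main fit called 3462 of 13880. The share of all genes called in the fits without 1 library is not given here. In day 35 KO 4 the 13 neutrophil genes summed to 3311 CPM, against 121 to 638 CPM in the other day 35 KO libraries, and the homeostatic microglia genes to 12580 CPM against 18410 to 18910 CPM. Their part in the level of that library was not tested. Ccl7 and Ccl2 were also lower at day 35 than at day 21 in KO, with log2 fold changes of -2.17 (SE 0.383) and -1.18 (SE 0.233).

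At day 35 no member was called between KO and WT. By edgeR 0 of 10 were called, where 2.62% of all genes were called either way. Of the members 2, Fn1 and Hp, had an unadjusted p under 0.05, as did 2685 of the 13880 genes tested, and DESeq2 called 1, Fn1. Neutrophil genes were higher in this comparison, 5 of 14. Ly6c2 measured 1.63, 2.25, 0.704 and 10.43 CPM in day 35 KO and 2.57, 4.72, 0 and 0 CPM in day 35 WT, groups that overlapped. Ccr2 had a log2 fold change of -0.02 (SE 0.699, adjusted p = 0.992 by edgeR).

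Fn1 was the exception in level. It measured 1029, 932.7, 937.5 and 1081 CPM in day 35 KO and 188.9, 232.0, 89.24 and 147.8 CPM in day 35 WT. All 4 KO libraries were above all WT libraries, as for 7.53% of all genes, and the highest KO library was 1.16 times the lowest, against 1.36 or more in each other group. The log2 fold change was 2.60 (SE 0.761) and missed the threshold at an adjusted p of 0.0688 by edgeR. It was called by DESeq2 (adjusted p = 0.00921) and by edgeR with the 2 groups fitted alone (adjusted p = 0.000351). With day 35 WT 3 moved to KO the adjusted p was 0.211, and under the other alternatives 0.0683 to 0.149. From naive KO to day 35 KO Fn1 was called higher (log2 fold change 2.62, SE 0.760, adjusted p = 0.0177 by edgeR), 1 of 10 against 11.6% of all genes and also the only 1 without overlap, against 12.7%, and was not called without naive KO 1 (adjusted p = 0.0507). In that comparison all 6 astrocyte, all 5 tested neuron, all 5 erythroid (55.1 to 212.3 CPM in sum at day 35, 2.57 to 21.4 CPM in naive KO) and 4 of 5 tested oligodendrocyte genes were higher. Called lower were 1362 of all 13880 genes. Of 12 homeostatic microglia genes 9 were lower (12580 to 18910 against 26450 to 28190 CPM). Of 10 border macrophage genes 6 were lower and 1 higher (59.0 to 80.2 against 32.3 to 221 CPM, with Cd209f at 0 in day 35 KO). Their part in the level of Fn1 was not tested.

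**Figure D5:**
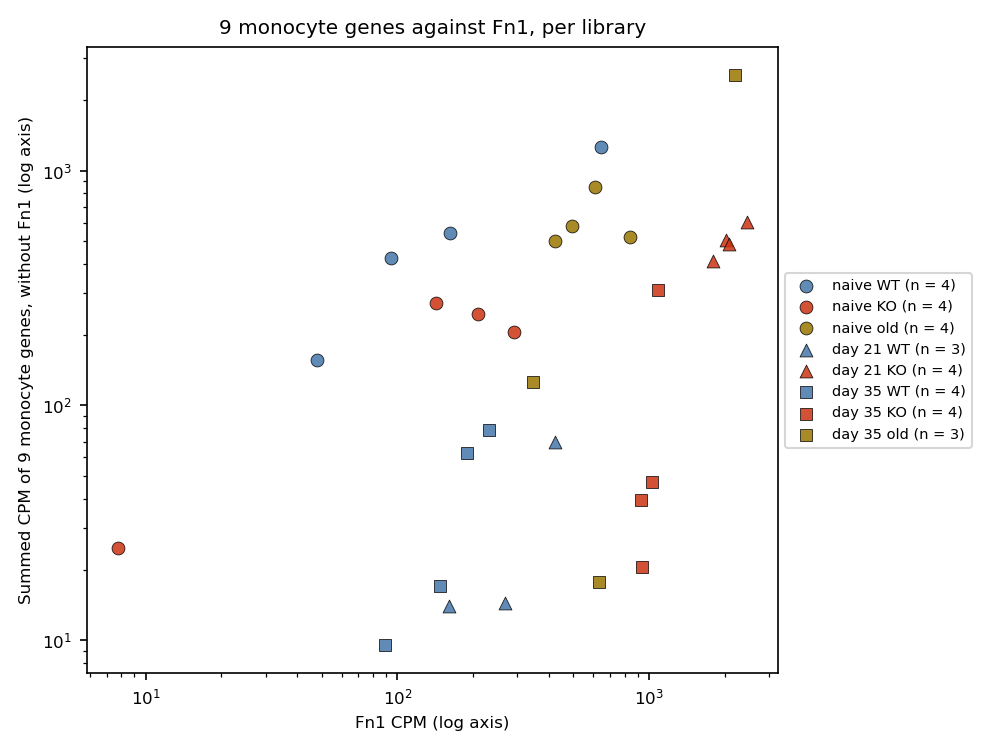
Summed CPM of the 9 genes without Fn1 (vertical log axis) against Fn1 CPM (horizontal log axis), 1 point per library. Day 35 KO 1 to 3 combine 933 to 1029 CPM of Fn1 with 20.4 to 47.4 CPM of the other 9, and day 21 KO libraries have both high.

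The change of the genotype effect from day 21 to day 35 was not called for any member (0 of 10 by edgeR, 3 with an unadjusted p under 0.05 beside 2671 of the 13880 genes tested), where 2.67% of all genes were called either way. For Fn1 it was -0.29 on the log2 scale (SE 1.06, adjusted p = 0.916 by edgeR), and for F13a1 -3.96 (SE 1.67, adjusted p = 0.190). For each Ccr2 count, Fn1 gave 25.6 to 35.5 counts in day 21 KO and 83.4, 86.5, 115 and 29.9 counts in day 35 KO, the last in day 35 KO 4. In WT the ratio was 20.8 to 32.8 at day 21, overlapping day 21 KO, 8.41 to 11.6 at day 35, below every day 35 KO library, and 2.72 to 10.6 without disease. In day 35 old it reached 91.2, in replicate 3, and was 20.8 or less in the other libraries.

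In old mice without disease, no member was called against naive WT, with 0 of 10 by edgeR and DESeq2, 0 at an unadjusted p under 0.05 by edgeR, and 8.18% of all genes called either way. Fn1 was at 421.8, 492.0, 837.3 and 607.5 CPM in naive old and 48.08, 94.29, 644.4 and 161.9 CPM in naive WT. Only naive WT 3 reached the range of naive old. The log2 fold change was 1.31 (SE 0.730, adjusted p = 0.291 by edgeR), and Fn1 was called when naive WT 3 was left out (adjusted p = 0.0372).

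At day 35, 7 of 10 were called higher in old than in WT mice, where 7.51% of all genes were, and the count rested on few libraries. Ly6c2 measured 93.66, 6.70 and 0.145 CPM in day 35 old 1, 2 and 3. Replicate 1 was the highest of all 30 libraries for Ly6c2 and replicate 3 lay among the WT libraries. Groups did not overlap for 1 of 10, Fn1, against 7.05% of all genes. Without day 35 old 1 the count was 0 of 10, without any 1 of the day 35 WT libraries 1 to 3, and with the 2 groups fitted alone 0. Fn1 measured 2187, 344.6 and 633.7 CPM in day 35 old, each above the highest day 35 WT library, with a log2 fold change of 2.68 (SE 0.793, adjusted p = 0.0359 by edgeR) that was 1.57 (adjusted p = 0.531) without day 35 old 1. With day 35 WT 3 moved to KO its adjusted p by edgeR was 0.113. It was 0.0708 with no filter, 0.0782 with the index row as a block and 0.331 with the 2 groups fitted alone. DESeq2 called it (adjusted p = 0.00727).

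Neutrophil genes rose with the same comparison, 12 of 14, and so did 18 of 20 other classical monocyte genes. Their sums were 7806, 1072 and 741 CPM for the classical monocyte list and 31790, 1946 and 77.6 CPM for the 13 neutrophil genes in day 35 old 1, 2 and 3, the same order as for Ly6c2. CCR2 ligands were called in 0 of 4. The part of neutrophil RNA was not tested. From naive old to day 35 old 0 of 10 were called by edgeR, 0 had an unadjusted p under 0.05, and 18.4% of all genes were called either way. Without day 35 old 1, 7 of 10 were called lower, among them Ccr2 (-2.14, adjusted p = 0.0271 by edgeR) and Gpr141 (-3.30, adjusted p = 0.0449). The share of all genes called in that refit is not given here, so the 7 cannot be set against it.

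Between day 21 and day 35 of WT mice 0 of 10 were called by edgeR and 0 had an unadjusted p under 0.05, where 0.0648% of all genes were called. S100a4 gave 9 counts at day 35 and 1 at day 21 in these groups, a ratio of 7.87 with an exact 95% interval from 1.09 to 345.

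Over all 30 libraries the levels of 9 members were closely correlated, with Fn1 apart. Pearson's r of log2 CPM ran from 0.347 to 0.984 over the 45 pairs, with a median of 0.896, and a median of 0.822 after group means were removed. Libraries in the points share groups, depth and cell mixture, so these values are descriptions. The median r of Fn1 with the other 9 was 0.450, and no other member's was under 0.862. After group means were removed the median of Fn1 was 0.668, nearer to the 0.770 of Plac8 and the 0.810 of S100a4 and Napsa.

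The genes most like each member, among named genes that are no members, were ranked by the same r over 30 libraries. For Ly6c2 they were Clec12a (r = 0.983), an inhibitory lectin receptor of myeloid cells, Dock5 and Rara (both 0.978). Clec12a also came first for Chil3 (0.984) and Gpr141 (0.978). Hp was near to Mcemp1 (0.990) and Glipr2 (0.983). Ccr2 and F13a1 both had Ahnak first (0.954 and 0.977), and S100a4 had S100a10, of the same protein family (0.920). Plac8 stood with the cell-cycle genes Ccna2 (0.933) and Kif11 (0.928), next to Ptpn7 (0.930). Napsa was nearest to Msrb1 (0.968), Spn and Fpr2. Fn1 had a set of its own, Igf2r (0.962), Trps1 (0.956) and Mdfic (0.953).

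The order of the groups by mean differed between members. For Fn1 it was day 21 KO (2085 ± 267 CPM, SD), day 35 old (1055 ± 991), day 35 KO (995 ± 72.5), naive old (590 ± 182), day 21 WT (283 ± 131), naive WT (237 ± 276), day 35 WT (164.5 ± 60.8) and naive KO (161.9 ± 119), where the last 4 lie within their spread. For Ly6c2 it was naive old (44.5 ± 23.9 CPM), day 35 old (33.5 ± 52.2), naive WT (30.1 ± 21.6), day 21 KO (29.7 ± 7.90), naive KO (9.45 ± 5.96), day 35 KO (3.75 ± 4.49), day 35 WT (1.82 ± 2.28) and day 21 WT (0.966 ± 1.34). The first 4 of that order do not differ beyond their spread, nor do the last 3. F13a1 alone of the secreted proteins other than Fn1 had its highest group mean in day 21 KO (185 ± 34.7 CPM), ahead of naive old (113.7 ± 28.7), with libraries of both groups overlapping. Ccr2 began as Fn1 did, with day 21 KO (66.2 ± 8.48 CPM) and day 35 old (59.9 ± 83.5), then naive old (52.6 ± 9.98). Its libraries in these groups overlapped.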

How the data were processed

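Counts per gene were deposited by the authors as 1 table. Per the submitters' processing notes, reads went through CASAVA, bcl2fastq and STAR to GRCm38. The counter, its strand setting and tool versions were not given in the sources used here. A deposited sample table gave EAE scores and RNA integrity scores (8.5 to 10), which the authors assigned. Its plate wells tie count columns to titles: counted down the plate, 30 of 30 titles matched their column's group, along rows 2. Of 32 count columns 2 were not used. Symbols came from GENCODE M21 for 98.2% of genes.

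Libraries with 4712803 to 11034565 counts were fitted in edgeR 4.0.16 (R 4.3.3) with filterByExpr (minimum count 10, total 15), TMM, 1 mean per group over 30 libraries and robust quasi-likelihood, 22 residual degrees of freedom, Benjamini-Hochberg within each of 14 contrasts and calls at an adjusted p under 0.05. Standard errors are the log2 fold change over the root of F. The fit was tested on simulated data. Alternatives were RLE factors, no filter, DESeq2 1.42.0 and only the groups compared. Others were the index row as a block, day 35 WT 3 as KO, and each library left out. Index row here means the second part of the index label, D501 to D504, and not a row of the plate. Exact 95% intervals cover counting error only. The 10 members and 16 gene lists were chosen with earlier results of these data known. Named list genes are the up to 4 called with the lowest adjusted p per comparison, up to 2 most abundant per marker list, those at 0, and the 3 named genes with the highest r to each member. Some genes that this rule names are not reported here.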

Additional observations from a re-analysis of the deposited data

Results flagged for a closer look

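Of 60 groups of 4 libraries tested by member, 11 held a library whose gap to the nearest exceeded Dixon's 95% critical value, where chance gives about 1 in 20 and the members are correlated. Day 35 KO 4 was the highest of its group in 7 of the 11. There Ly6c2 was at 10.43 CPM (nearest 2.246), Ccr2 at 36.12 (12.33), S100a4 at 3.351 (0.4224), Chil3 at 159.0 (11.29), F13a1 at 42.58 (8.913), Napsa at 7.075 (1.188) and Gpr141 at 6.206 CPM (1.497). Naive old 4 was the highest of its group for Ly6c2 at 80.22 CPM (nearest 36.15), Hp at 152.4 (98.33) and Gpr141 at 28.84 CPM (14.14). Naive KO 4 was the lowest of its group for Ccr2 at 12.02 CPM (nearest 39.68).

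The KO effect at day 21 differed from that without disease by the interaction test for 8 members. On the log2 scale the difference was 6.81 for Ly6c2, 6.64 for S100a4, 7.23 for Chil3, 5.44 for F13a1, 6.06 for Hp, 4.0 for Plac8, 6.48 for Napsa and 6.82 for Gpr141. S100a4 had 1 count in day 21 WT, so its fitted value depends on the prior count. None of the 8 was called by edgeR when naive WT 3, day 21 WT 2 or day 21 WT 3 was left out.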

How the results depend on the processing

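The larger changes in counts of members called are given here, and their cause was not tested. Smaller ones, such as those by DESeq2 for day 21 KO against WT and for the interaction at day 21, are left out. With no filter on low counts they were 4 for day 21 WT and 4 for day 35 WT against naive WT, 1 for day 35 KO against day 21 KO, 4 for day 35 old against day 35 WT and 1 for the interaction at day 21. With the index row as a block, day 35 old against day 35 WT gave 1 and that interaction 5. With day 35 WT 3 moved to KO, day 35 WT against naive WT gave 3, day 35 KO against day 21 KO 7 and day 35 old against day 35 WT 2. DESeq2 gave 1 for day 35 KO against day 35 WT. With only the groups compared, that contrast gave 1, day 35 WT against naive WT 3, day 21 KO against naive KO 3, day 35 KO against naive KO 0, day 35 KO against day 21 KO 7 and day 35 old against day 35 WT 0. Over omissions of 1 library the counts ran from 1 to 7 for day 21 KO against WT, 1 to 7 for day 21 WT against naive WT, 2 to 7 for day 35 WT against naive WT, 0 to 7 for day 35 KO against day 21 KO, 0 to 1 for day 35 KO against naive KO, 0 to 10 for day 35 old against day 35 WT, 0 to 7 for day 35 old against naive old, 0 to 1 for naive old against naive WT and 0 to 9 for the interaction at day 21. Reversed values came only in day 35 old against naive old, without day 35 old 1: Ccr2 ran from -2.14 to 0.71 and Gpr141 from -3.30 to 0.98 on the log2 scale over the omissions. In 58 further cases the sign of a member called in neither fit changed, 50 of them by leaving out 1 library. Of all genes, day 35 KO against WT called 363, 723 by DESeq2 and 551 with only the groups compared, and day 35 old against WT 1312, 849 with no filter, 647 with the index row block and 0 with only the groups compared. For the interaction at day 21 they were 1343, and 845 with no filter. A library's 3 counts are 0.281 to 0.704 CPM, so members at those levels in EAE WT are not told apart from 0. No paired analysis was possible because the labels carry no replicate numbers, and those used here are in accession order.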
